A study of Rattus norvegicus with 12 samples.

Results

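White adipocytes store triacylglycerol and secrete hormones, and 10 genes of these functions were chosen for description by name. They were Adipoq, Lep, Retn, Cfd, Adrb3, Pck1, Lipe, Pnpla2, Plin1 and Pparg, taken as every probe set whose platform gene symbol was one of them. Of the 10 genes 9 were measured, by 11 of the 31099 probe sets on the array, among 14217 genes in all. Retn, which encodes the hormone resistin, was not among the symbols and was not analysed here.

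The arrays profiled RNA of the abdominal mammary gland, an organ whose epithelial ducts lie in a pad of fat, from female Sprague-Dawley rats. All rats, controls included, were ovariectomized on postnatal day 50, so that the ovarian supply of estrogen was gone. Their protein source from day 30 to day 64 was either milk casein or soy protein isolate, and part of each diet group received 17β-estradiol (E2) from a mini-osmotic pump for 14 days, the others vehicle. Crossing diet and hormone gave 4 groups (casein and soy, without and with E2) of 3 arrays each, and each array was hybridised with pooled RNA. The titles call each sample a pool, and the number of animals per pool is not given in the sources used here. That the estradiol group without soy ate casein was read from the treatment protocol, since its own labels name only the hormone. The question of the series was what the soy diet, the hormone and their combination do to expression in this gland.

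In a white adipocyte, lipolysis releases fatty acids and glycerol from the lipid droplet. Catecholamines act through the beta-3 adrenergic receptor and cyclic AMP, perilipin 1 on the droplet surface releases the coactivator of adipose triglyceride lipase, and that enzyme, hormone-sensitive lipase and monoacylglycerol lipase then remove the fatty acids in turn. The same cells secrete adiponectin and leptin, and the nuclear receptor PPARγ drives most of this gene programme. In the mammary gland these adipocytes surround the ducts that respond to ovarian hormones.

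Of the 10 genes 8 had promoter windows in the RefSeq table (build GRCr8), and Lipe and Adrb3 did not match. The stretches below are shown because Lep and Pck1, both changed by E2, carry in them textbook motifs for factors that act in adipocytes. Capitals mark the motif, and each stretch is the plus strand, 5′ to 3′, upstream of the annotated start site.

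Lep, chr4:58626418-58626528, plus strand: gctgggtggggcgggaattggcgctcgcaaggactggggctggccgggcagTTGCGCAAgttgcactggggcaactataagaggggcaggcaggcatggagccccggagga

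Pck1, chr3:182348412-182348571, plus strand: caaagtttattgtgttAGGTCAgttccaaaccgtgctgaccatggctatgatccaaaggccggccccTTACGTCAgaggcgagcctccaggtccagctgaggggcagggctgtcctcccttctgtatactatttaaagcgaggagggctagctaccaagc

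The capitals in the Lep stretch spell the C/EBP palindrome TTGCGCAA at positions -69 to -62 from the start. These letters occurred on either strand in 0.17% of the 33469 windows of 300 bases in the table. In the Pck1 stretch TTACGTCA, a form of the cyclic AMP response element, lay at -93 to -86 (0.807% of windows) and AGGTCA, a single repeat of the sites that many nuclear receptors bind, at -144 to -139 (16.2% of windows). The palindromic estrogen response element was in 0.0269% of windows and the PPAR element of direct repeats in 0.0538%, and neither was in the 9 windows of these genes. A match describes letters in a window of 300 bases and says nothing of binding, and the motifs were chosen after the sequences were seen.

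Averaged over both diets, E2 lowered 6 of the 9 measured genes. Adrb3, the beta-3 adrenergic receptor, fell 4.33-fold, Pck1, the enzyme of glyceroneogenesis, 3.64-fold, Lep, leptin, 3.24-fold, and Adipoq, adiponectin, 2.82-fold. Both lipases fell by less, Pnpla2 1.73-fold and Lipe 1.33-fold. Plin1 and Pparg were lower by 1.94-fold and 2.07-fold but missed the threshold. Cfd, which encodes the secreted serine protease adipsin, did not pass and had the opposite sign, with a difference of 0.12 ± 0.23 on the log2 scale (SE; adjusted p = 0.764, limma). The threshold for a call was 0.05 after Benjamini-Hochberg adjustment over all 14217 genes. Among all genes 12.2% were called, and 5.51% were called lower, against 6 of 9 here. The median difference of the 9 genes was -1.05, against 0.0 over all genes.

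Values are differences from each probe set's median over the 12 arrays, read as log2. They hold no expression level, so a value near 0 means the middle of the arrays and genes cannot be ranked by abundance. Pools 2 and 3 of casein plus E2 gave almost identical arrays, with 0 probe sets differing by more than 1 and an SD of the difference of 0.163, against 0.301 or more in the other pairs. They were averaged and counted as 1 sample, so n = 2 in that group and n = 3 in each other group. Soy plus E2 pool 3 stood nearest the middle of all arrays, with an SD over all genes of 0.173 against 0.256 to 0.547 elsewhere. Casein pool 3 had a mean of 5.52 over 12 liver genes, and casein and soy pools 2 had means of 3.54 and 3.75 over 11 skeletal muscle genes. The labels also disagree on the organ, since a description field speaks of hepatic expression and the source of each sample is given as mammary gland.

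**Figure D1:**
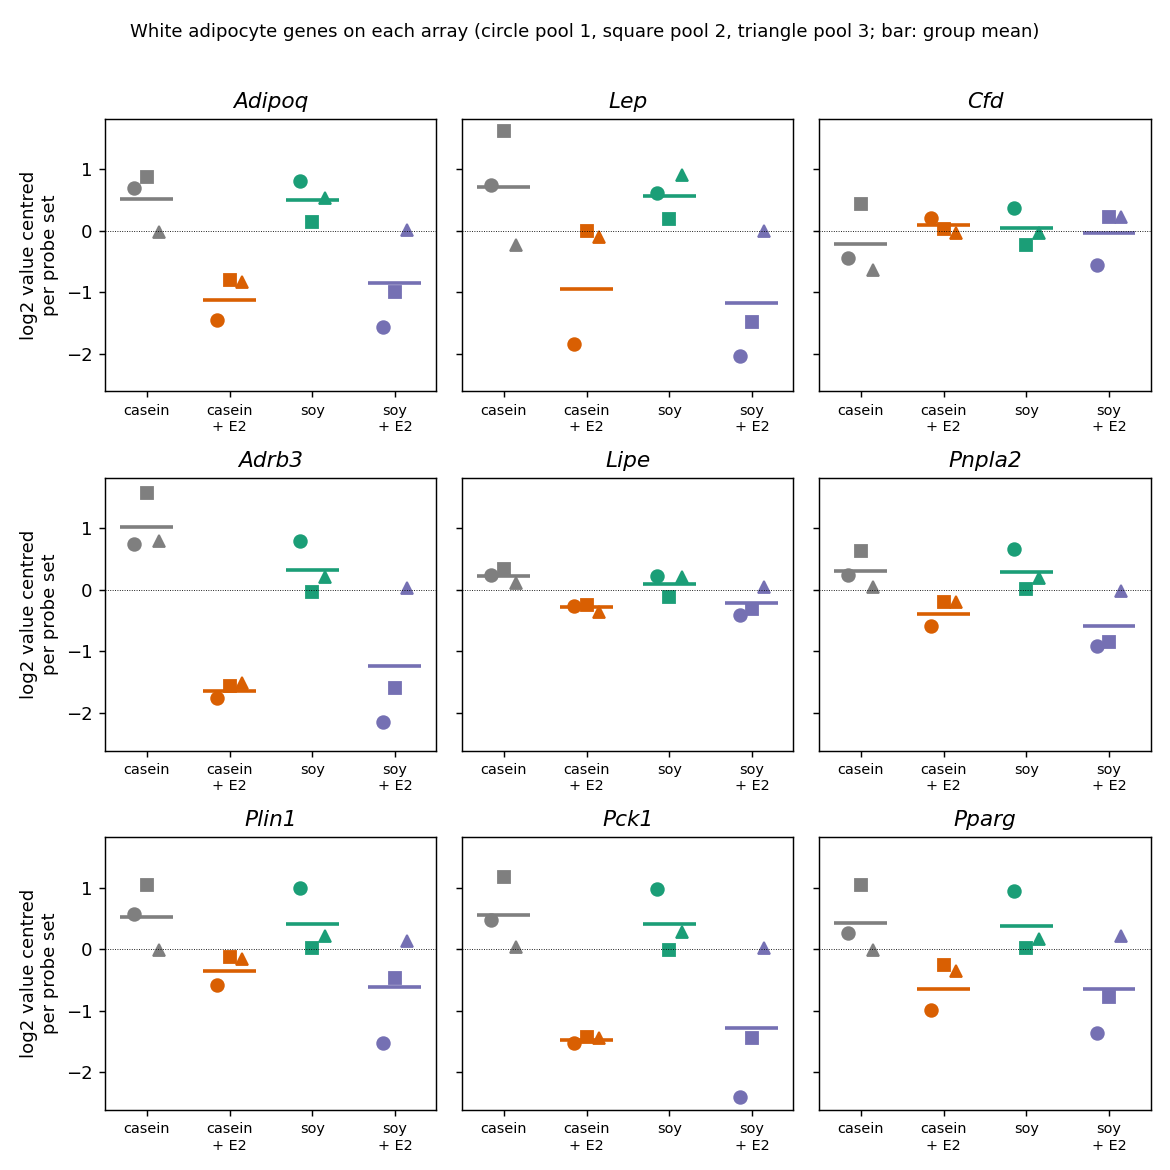
Centred log2 value (vertical axis) of each of the 9 measured genes in every pool (points) of the 4 groups (horizontal axis), with bars at the group mean. Adrb3 lies between -1.76 and -1.51 in the casein plus E2 pools, and soy plus E2 pool 3 lies between -0.01 and 0.23 for the 9 genes.

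Among the hormones, Adipoq encodes adiponectin, which acts on liver and muscle to raise insulin sensitivity. Its values were 0.69, 0.88 and -0.02 in the casein pools and -1.45, -0.80 and -0.83 with casein plus E2. The soy pools had 0.81, 0.14 and 0.53, and the soy plus E2 pools -1.56, -1.0 and 0.02. Every E2 pool lay below every pool without E2 of its own diet, and over both diets only soy plus E2 pool 3 and casein pool 3 overlapped. The E2 difference averaged over diets was -1.50 ± 0.29 (95% confidence interval -2.16 to -0.84; adjusted p = 0.0167, limma).

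Lep encodes leptin, which signals the size of fat stores to the brain. The pools had 0.75, 1.62 and -0.24 with casein and -1.84, 0.00 and -0.10 with casein plus E2. With soy they had 0.61, 0.19 and 0.91, and with soy plus E2 -2.04, -1.48 and -0.00. The casein groups overlapped, because casein pool 3 was below casein plus E2 pools 2 and 3, whereas the soy groups did not. The spread was wide, with SDs of 0.93 (n = 3) in casein and 1.27 (n = 2) in casein plus E2. The averaged E2 difference of -1.70 ± 0.48 passed narrowly (adjusted p = 0.0477, limma), and at 0.0508 it did not pass when each probe set was tested on its own.

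Cfd encodes adipsin, also called complement factor D, which fat cells secrete in quantity. It had -0.45, 0.44 and -0.64 in casein, 0.20, 0.03 and -0.03 in casein plus E2, 0.37, -0.23 and -0.03 in soy, and -0.56, 0.22 and 0.23 in soy plus E2. These groups overlapped throughout. The 95% confidence interval of the averaged E2 difference ran from -0.39 to 0.64.

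Adrb3 encodes the beta-3 adrenergic receptor, through which catecholamines start lipolysis in rodent fat cells. Its values were 0.74, 1.57 and 0.80 in casein and -1.76, -1.56 and -1.51 in casein plus E2, a gap of over 2 log2 units between the nearest pools. In soy it had 0.79, -0.04 and 0.21, and in soy plus E2 -2.15, -1.59 and 0.04, where the third pool lay among the soy pools. The averaged difference of -2.12 ± 0.37 (95% confidence interval -2.94 to -1.29; adjusted p = 0.0124, limma) was the largest in size of the 9 genes.

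Among the genes of the lipid droplet, Pnpla2 encodes adipose triglyceride lipase, which takes the first fatty acid from triacylglycerol. It had 0.24, 0.64 and 0.05 in casein, -0.58, -0.20 and -0.19 in casein plus E2, 0.67, 0.01 and 0.20 in soy, and -0.91, -0.85 and -0.01 in soy plus E2. Pnpla2 was the only one of the 9 genes with every E2 pool below every pool without E2 over both diets, a separation found in 2.62% of all genes. The margin was narrow, with soy pool 2 at 0.01 and soy plus E2 pool 3 at -0.01. Its averaged difference was -0.79 ± 0.20 (adjusted p = 0.0365, limma).

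Lipe encodes hormone-sensitive lipase, which acts on diacylglycerol. The mean of its probe sets was 0.24, 0.34 and 0.11 in casein, -0.26, -0.24 and -0.36 in casein plus E2, 0.22, -0.12 and 0.21 in soy, and -0.40, -0.31 and 0.05 in soy plus E2, with an averaged difference of -0.41 ± 0.10 (adjusted p = 0.0335, limma). Its 2 probe sets disagreed. Probe set 1387132_at differed by -0.79 ± 0.18 (adjusted p = 0.0296, limma), and 1382465_at by -0.04 ± 0.09 (adjusted p = 0.814, limma). The mean of both therefore understates the change read by the first, which is as large as that of Pnpla2.

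Plin1 encodes perilipin 1, the coat protein of the fat cell's droplet. It had 0.57, 1.04 and -0.02 in casein, -0.58, -0.12 and -0.16 in casein plus E2, 0.99, 0.02 and 0.22 in soy, and -1.53, -0.47 and 0.14 in soy plus E2. The casein groups did not overlap and the soy groups did. The averaged difference of -0.96 ± 0.32 (adjusted p = 0.083, limma) did not pass, and the probe sets 1369449_at and 1392583_at gave -0.95 and -0.97.

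Pck1 encodes the cytosolic phosphoenolpyruvate carboxykinase, which in fat cells makes the glycerol backbone that returns fatty acids to storage. It had 0.48, 1.17 and 0.03 in casein, -1.52, -1.43 and -1.45 in casein plus E2, 0.98, -0.02 and 0.28 in soy, and -2.41, -1.44 and 0.02 in soy plus E2. The casein plus E2 pools, of which pools 2 and 3 count as 1 sample, lay within 0.1 log2 unit of each other and far below every casein pool. Soy plus E2 pool 3 lay just above soy pool 2. The averaged difference was -1.87 ± 0.41 (adjusted p = 0.0227, limma).

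Pparg encodes the nuclear receptor on which fat cell formation depends. Its values were 0.26, 1.04 and -0.02 in casein, -0.99, -0.25 and -0.35 in casein plus E2, 0.95, 0.02 and 0.16 in soy, and -1.37, -0.78 and 0.21 in soy plus E2. As for Plin1, the groups were apart in casein and overlapped in soy through pool 3. The averaged difference of -1.05 ± 0.32 did not pass (adjusted p = 0.0631, limma).

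The calls rested on few pools. Leaving out casein plus E2 pool 1 left 1 sample in that group, with differences of -2.06 for Adrb3 and -1.25 for Lep. All later counts and p-values without that pool also come from fits with 1 sample in its group. The number called over all genes moved as well when 1 array was left out, as given in the closing part. Of the 9 genes, 2 passed when casein pool 2 or soy plus E2 pool 2 was left out. Leaving out casein pool 1, soy pool 1, soy pool 3 or soy plus E2 pool 1 left 3, and leaving out soy plus E2 pool 3, the pool in the middle, gave 8. The mean of 18 spike-in probe sets was above 0 on 6 arrays and below 0 on the others. Within the first, the median E2 difference of the 9 genes was -1.44 (n = 2 with E2, n = 4 without). Within the second it was -0.62 (n = 3 with E2, n = 2 without), with the near-identical pools counted as 1 sample. Diet and E2 were both unevenly spread over this split, and every casein pool without E2 was in the first set. Adipoq and Adrb3 passed in 11 of the 12 fits that left out 1 array. Leaving out casein plus E2 pool 2 or 3 removed no sample, since the near-identical other pool stayed, so those fits nearly repeated the main one. The differences themselves moved less than the calls, from -1.71 to -1.32 for Adipoq and from -2.43 to -1.89 for Adrb3.

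Within casein, Adrb3 fell by 2.68 ± 0.55 on the log2 scale with E2, or 6.40-fold, and it was the only one of the 9 genes called (adjusted p = 0.0406, limma), where 0.95% of all genes were called lower. Adipoq (-1.65 ± 0.44, adjusted p = 0.0798), Pck1 (-2.04 ± 0.61, 0.104) and Lipe (-0.51 ± 0.15, 0.113) came next in limma's order. All but Lep and Cfd, 7 of 9, had casein plus E2 pools wholly below the casein pools, against 17.3% of all genes. The Adrb3 call was lost without any single casein pool (adjusted p = 0.0842, 0.108 and 0.064), without pool 1 of casein plus E2 (0.221), and without soy pool 2 (0.0654), soy pool 3 (0.0563) or soy plus E2 pool 2 (0.0592).

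Within soy, 0 of the 9 genes were called by limma, and 0.218% of all genes were. At an unadjusted p under 0.05, 8 of 9 were lower, against 10.2% of all genes. Lep was at -1.74 ± 0.64 (adjusted p = 0.176), Pck1 at -1.69 ± 0.54 (0.141), Adrb3 at -1.55 ± 0.49 (0.139) and Adipoq at -1.34 ± 0.39 (0.124), each from limma. Adipoq, Lep and Pnpla2, 3 of 9, had soy plus E2 pools wholly below the soy pools, as did 1707 of the 14217 genes. Soy plus E2 pool 3 was the high pool of its group for every gene, at most 0.23. Without it 4 of the 9 genes were called, and the calls over all genes rose from 31 to 760 as well.

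**Figure D2:**
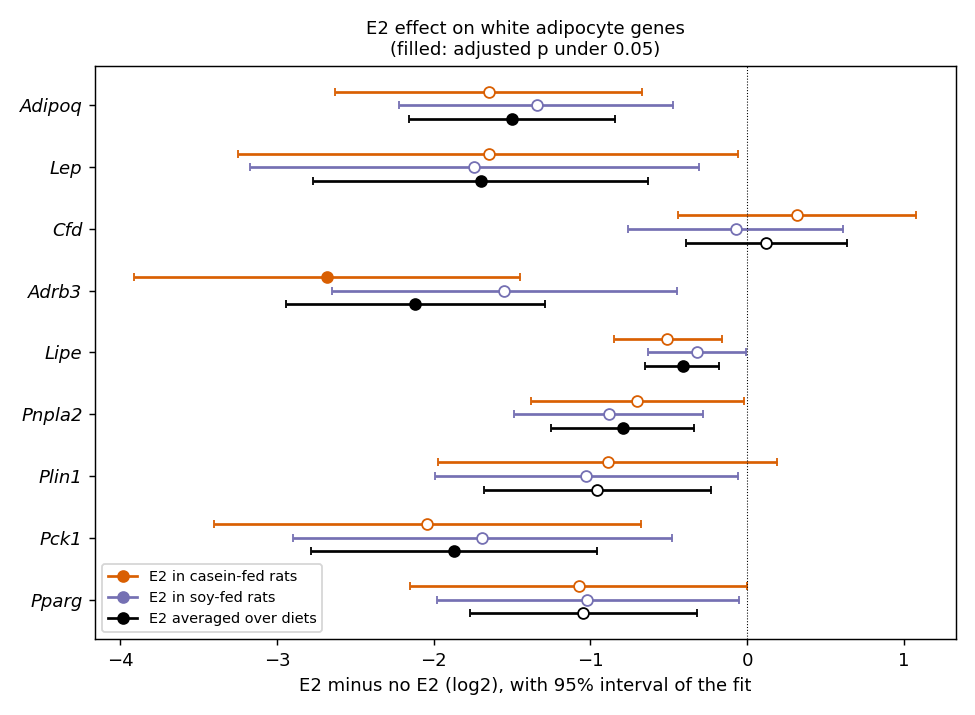
E2 minus no E2 on the log2 scale (horizontal axis) with 95% confidence intervals for each of the 9 genes, within casein, within soy and averaged over both diets. Adrb3 has the largest averaged difference in size at -2.12, and the Cfd intervals include 0 in each comparison.

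The interaction, E2 in soy minus E2 in casein, was called for 0 of the 9 genes and for 0.0% of all genes, and at an unadjusted p under 0.05 for 0 of 9 and 6.53%. Adrb3 had the largest value in size, 1.13 ± 0.74, meaning a smaller E2 difference in soy (95% confidence interval -0.52 to 2.78; adjusted p = 0.813, limma). It was 0.49 without soy plus E2 pool 3 and ran up to 1.59, without soy plus E2 pool 1, when 1 array was left out. For Lep the interval ran from -2.23 to 2.06, which spans effects of several-fold either way. These intervals are too wide to show that E2 acted alike on both diets.

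Soy against casein without E2 differed by -0.71 ± 0.49 for Adrb3 (95% confidence interval -1.81 to 0.39) and by 0.26 ± 0.30 for Cfd, the ends of the range over the 9 genes. By limma 0 of 9 genes and 0.0% of all genes were called, and at an unadjusted p under 0.05 there were 0 of 9 and 10.4%. With E2 the soy differences ran from -0.26 for Plin1 to 0.41 for Adrb3. Again 0 of 9 were called, with adjusted p = 0.999 for each in limma, against 0.00703% of all genes, and unadjusted 0 of 9 against 5.1%. The soy and E2 comparisons share groups of pools and are not independent of each other.

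The genes moved together across the 11 samples. Each of 8 genes had a Pearson r of 0.93 to 0.982 with the mean of the others, while Cfd had 0.259. Among pairs, Cfd reached at most 0.447, with Plin1, and the other pairs ran from 0.873 for Lep and Lipe to 0.978 for Adipoq and Pck1. The points share the 4 groups and the tissue makeup of each pool, so these correlations are a description.

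Differences from Plin1 in the same sample show unequal change among genes measured in the same pooled RNA. Averaged over diets, E2 shifted Cfd by 1.08 relative to Plin1, from -1.03 to -0.24 in samples without E2 and from 0.09 to 0.97 with E2, with no overlap. Pck1 shifted by -0.91, from between -0.09 and 0.13 without E2 to between -1.30 and -0.13 with E2, again with no overlap. The Pck1 margin was narrow, with casein pool 1 at -0.09 and soy plus E2 pool 3 at -0.13. Cfd and Pck1 each had an exact two-sided permutation p of 0.005 within diets, the smallest that the 200 splits can give.

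Adrb3 shifted by -1.16 (exact permutation p = 0.01) and Adipoq by -0.54 (exact permutation p = 0.015), with samples that overlapped. Lep (-0.74, p = 0.055), Lipe (0.54, p = 0.085), Pnpla2 (0.17, p = 0.385) and Pparg (-0.09, p = 0.43) did not differ from Plin1 beyond the spread by the same exact permutation test. In the planned limma fit, which gave every gene the same error and is not relied on, Adipoq did not pass (adjusted p = 0.213), while Adrb3, Cfd and Pck1 did (0.0319, 0.0353 and 0.0473). The permutation p-values are 8 unadjusted tests that share Plin1, so noise in Plin1 enters each. Adipoq did not pass at p under 0.05 without casein pools 1, 2 or 3, each left out alone, with an exact permutation p of 0.05 each time.

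**Figure D3:**
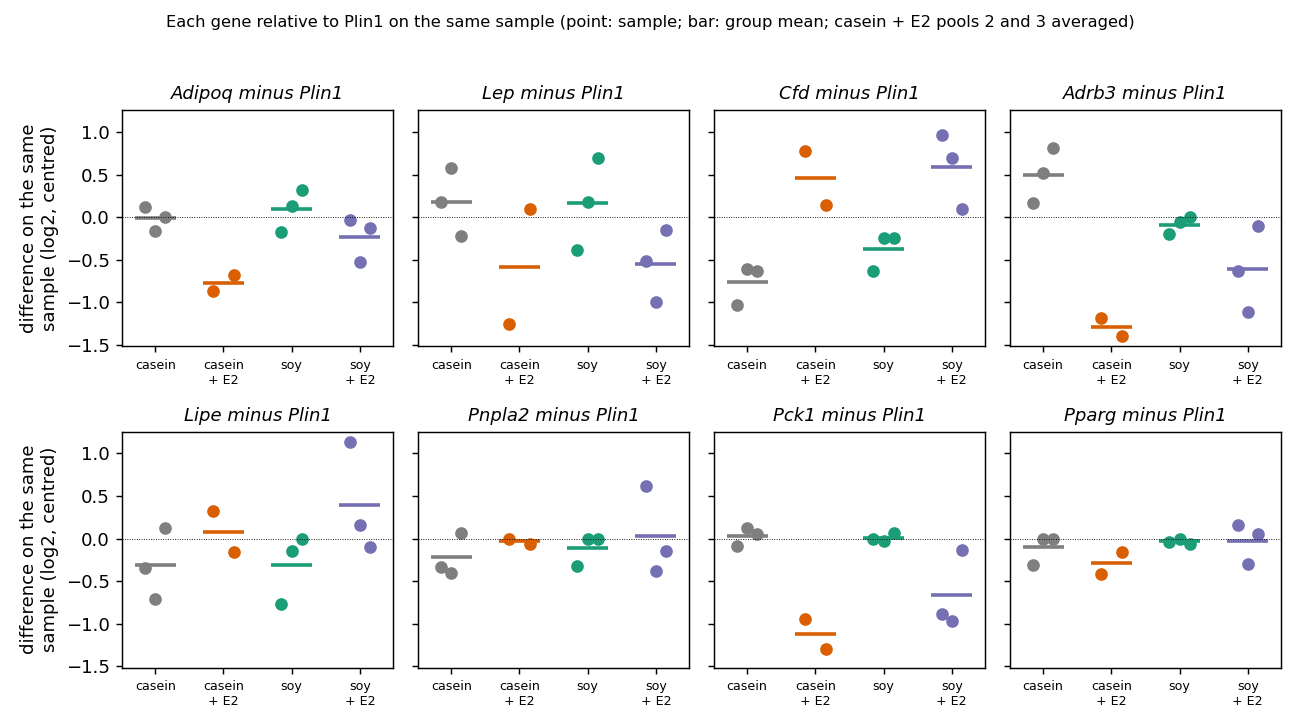
Log2 value of each gene minus Plin1 in the same sample (vertical axis) for the 4 groups (horizontal axis), with points for samples and bars for group means. Cfd lies above -0.24 only in the E2 samples and Pck1 lies between -0.09 and 0.13 in every sample without E2.

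Other genes of the lipolysis pathway were given by a list of 34 measured genes, of which 12 fell and 3 rose with E2 averaged over diets, where 5.51% and 6.73% of all genes did. The median was -0.32. Mgll, monoacylglycerol lipase, fell by 0.99 ± 0.19 (adjusted p = 0.0162, limma), and Npy1r and Adra2a, receptors that restrain lipolysis, fell by 1.03 and 0.49 (0.0153 and 0.0149). Adcy3, an adenylyl cyclase, fell by 0.55. Aqp3, a glycerol channel, rose by 0.78 and Irs2, which carries the insulin signal, by 0.64. Pde3b, the phosphodiesterase through which insulin lowers cyclic AMP, had -1.01 without passing (adjusted p = 0.071, limma). The count called lower ran from 1 (without casein plus E2 pool 1) to 16 when 1 array was left out. It was 4 without casein pool 2 or soy plus E2 pool 1, 5 without casein pool 1, soy pool 1, soy pool 3 or soy plus E2 pool 2, and 6 without soy pool 2.

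Of 14 other secreted adipocyte products 5 fell and 1 rose, with a median of -0.33. Over all genes 5.51% were called lower and 6.73% higher, for comparison with each list here. Rbp4, the retinol carrier, fell by 1.51, Rarres2, which encodes chemerin, by 1.19, Sparc by 0.94 and Apln, apelin, by 0.73, while Lcn2, lipocalin 2, rose by 1.08 (adjusted p = 0.0299, limma). Of 9 receptors of adipocyte hormones 1 fell, the adiponectin receptor Adipor2, by 0.71 (adjusted p = 0.0304, limma). Beside 5.51% of all genes, 1 of 9 is not read as a result about the receptors. The list of 16 genes of lipid uptake and triacylglycerol formation had 3 that fell and a median of -0.58. They were Lpl, lipoprotein lipase, by 0.85, and the acyltransferases Agpat2 by 1.37 and Dgat2 by 1.15. The secreted products had 2 called lower without casein plus E2 pool 1, soy plus E2 pool 1 or soy plus E2 pool 2, and 3 without casein pool 2. The lipid formation list had 8 called lower without casein pool 3, 6 without soy plus E2 pool 3, 3 or 4 without casein plus E2 pool 2 or 3, and 0 without any 1 of the other arrays. Neither Lcn2 nor Adipor2 was called when casein pool 1, casein pool 2, casein plus E2 pool 1, soy plus E2 pool 1 or soy plus E2 pool 2 was left out.

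Transcription factors of adipocytes went both ways, with 4 lower and 4 higher of 24 and a median of 0.02. Over all genes 5.51% were called lower and 6.73% higher. Ebf2 and Ebf1, factors of the fat lineage, fell by 1.24 and 0.55, and Nr1h3, the oxysterol receptor LXRα, by 0.72. Stat5a and Stat5b, which carry prolactin and growth hormone signals and also act in mammary epithelium, rose by 1.12 and 0.53. Cebpa, partner of Pparg in fat cell formation, had -0.64 without passing (adjusted p = 0.104, limma). When 1 array was left out, 0 to 5 of the factors were called lower and 1 to 5 higher, with 0 and 1 without pool 1 of casein plus E2, 2 and 2 without pool 2 of soy plus E2, 3 and 1 without pool 1 of it, 2 and 3 without casein pool 2, 3 and 2 without casein pool 1, and 4 and 2 without soy pool 2 or 3.

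Markers of other cell types moved with the same comparison, but the lists share genes, so their counts are not independent. Beside the counts for the E2 average below, 5.51% of all genes were called lower and 6.73% higher. The white adipocyte list shares Plin4, Fabp4, Aqp7 and Cidec with the lipolysis list. It also shares Lpl, Cd36, Gpd1 and Slc2a4 with lipid uptake and Cebpa with the transcription factors. Ebf2 and Ppargc1a are in both the factor list and the brown and beige adipocyte list. Cidea was chosen for both the lipolysis list and the brown and beige list. Of 13 further white adipocyte markers 7 fell (median -1.02), among them Acvr1c at -1.44, Plin4 at -1.41, Car3 at -1.39 and Fabp4 at -0.91, and 0 passed without casein plus E2 pool 1, 1 without casein pool 2, soy pool 3 or soy plus E2 pool 2, 2 without casein pool 1, soy pools 1 or 2 or soy plus E2 pool 1, and 11 when pool 3 of soy plus E2 was left out. Of 16 luminal epithelial markers 9 rose and 0 fell (median 1.04), with Elf5 higher by 1.98 and Cd24 by 1.88. The luminal count fell to 3 without pool 1 of casein plus E2, was 4 without casein pool 2 or soy plus E2 pool 1 or 2, 5 without soy pool 2, 6 without casein pool 1 and 7 to 10 otherwise. Basal and myoepithelial markers had 4 of 9 higher and 1, Mme, lower (-0.86, adjusted p = 0.038, limma). Also called were 5 of 10 preadipocyte and fibroblast markers, 4 of 9 endothelial markers and 6 of 8 mast cell markers, all lower. The endothelial median was -0.89 within casein, with 4 called lower, and -0.15 within soy, with 0 called. Of 10 macrophage markers 1 fell and 1 rose (median -0.19), with medians of 0.23 within casein and -0.62 within soy. Leaving out 1 array gave 0 to 5 basal markers higher and, lower, 1 to 5 fibroblast, 0 to 7 endothelial and 5 or 6 mast cell markers. Without casein plus E2 pool 1 these counts were 0, 2, 0 and 6. In these bulk samples, fewer fat cells and less RNA per fat cell cannot be told apart, and the part of tissue makeup in the E2 differences was not tested.

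By pool, the mean of the 9 genes ran from 0.01 to 0.97 in casein, from -0.97 to -0.51 in casein plus E2, from -0.00 to 0.71 in soy and from -1.44 to 0.08 in soy plus E2. The luminal means ran from -1.0 to -0.03, 0.47 to 0.59, -1.41 to -0.26 and -0.06 to 0.51 in the same order, and the mean of the 13 other adipocyte markers from -0.03 to 0.74, -0.96 to -0.42, 0.05 to 0.59 and -1.47 to 0.08. Soy plus E2 pool 3, the high E2 pool for the 9 genes, was also the high E2 pool for the adipocyte list and the low one for the luminal list. Of the 12 liver markers and 11 skeletal muscle markers 0 were called, against 12.2% of all genes, with medians of -1.09 and -1.73. The liver median was -0.04 without casein pool 3. The muscle median was still -0.54 without casein and soy pools 2. Casein pool 1 also had a muscle mean of 1.63, against at most 0.54 in the E2 pools. Without casein and soy pools 2 together 0 of the 9 genes were called, with Adrb3 at -2.07 (adjusted p = 0.0534, limma), and without casein pool 3 there were 6. Defining markers have no level in centred values, so the presence of the labelled tissue could not be checked by level.

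**Figure D4:**
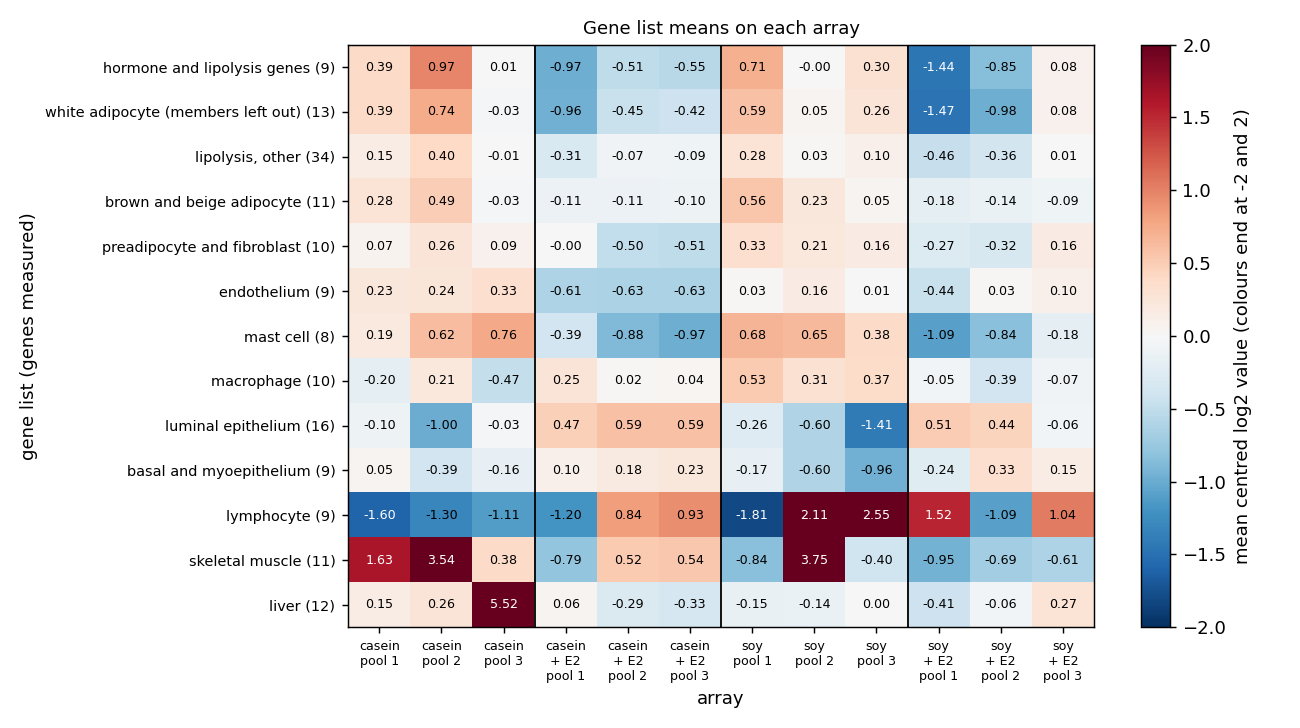
Mean centred log2 value (colour, ending at -2 and 2, with the value written in) of each gene list (rows, with the number of genes measured) on each array (columns). The 9 hormone and lipolysis genes and the 13 other white adipocyte markers are lowest on soy plus E2 pool 1, at -1.44 and -1.47, and the luminal list is lowest on soy pool 3, at -1.41.

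The 8 genes most like the mean of the 9 over the 11 samples had a Pearson r of 0.987 to 0.989. They were Tdrp, Aoc3, Plin4, Aqp7, Col15a1, Nid2, Trarg1 and Plaat3. Aoc3 is an amine oxidase, Plin4 a droplet protein, Aqp7 a glycerol channel, Trarg1 a protein of insulin-driven glucose transport and Plaat3 a phospholipase, while Col15a1 and Nid2 encode basement membrane proteins. Their E2 differences, from -0.91 for Tdrp to -1.41 for Plin4 and Aqp7, follow from that choice, since the mean they were matched to was lower with E2.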

How the data were processed

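The authors deposited 1 table, 31099 probe sets by 12 Affymetrix rat arrays. Its deposited values were taken as log2, since the widest span of any probe set was 9.85, and each probe set has a median of 0 (largest 5e-07). GCOS, the Affymetrix array software, is named without a version in the submitters' processing notes, while the summarisation, the log base and any normalization are not stated in the sources used here. Array medians lay between -0.0246 and 0.0112, and no further normalization was applied. The number of arrays limits the precision.

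The platform annotation gave 20826 probe sets 1 gene, 436 several and 9780 none, and 57 were controls. The gene identifiers of 20758 were found in the GRCr8 gene table, and 0 symbols changed. A gene's probe sets were averaged. Groups came from the sample titles and labels. Group means were fitted over 11 samples (4 groups, 7 residual degrees of freedom) with limma 3.58.1 in R 4.3.3, two-sided, with p-values adjusted over 14217 genes, and 6 contrasts were tested. Nothing says that pools came from separate animals beyond their titles, so p-values measure the spread between these pools, which may be technical. Errors are standard errors of the fit. The planned limma fit of differences from Plin1 gave every gene the same error, for a cause that was not tested. It was replaced, after seeing the data, by an exact permutation test within diets.

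Pool numbers did not pair the arrays. Deviations from group means correlated between same-numbered arrays at -0.42 to 0.46 (pool 1), -0.28 to 0.24 (pool 2) and -0.14 to 0.22 (pool 3).

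The genes and lists were chosen with earlier results of these data known. Named were all 10 genes, up to 6 called and 2 uncalled genes per pathway list, up to 4 per marker list, and the 8 genes most correlated with the mean of the 9. The text prints most of these. The code was tested on simulated data, where among 14217 genes the E2 average called 91% of 100 genes made lower by 1 log2 unit and 98% of 100 made lower by 2. Of the genes left unchanged 10 were called. Noise was drawn for each gene on its own, whereas real genes share the makeup of a pool. These shares are therefore not the power for the 9 genes. The alternatives tried were median centring and quantile normalization, other uses of probe sets, 12 separate arrays, a pool block, array weights, the sign of 18 spike-in probe sets as a term, only the contrast's groups, a threshold of 0.01 and leaving out arrays.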

Additional observations from a re-analysis of the deposited data

How the results depend on the processing

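For the E2 average 6 of the 9 genes were called in the main fit. Of the 9, 5 to 8 were called with quantile normalization, median centring, the probe set of largest SD, every probe set tested, 12 separate arrays, array weights and the spike-in split. The count was 0 without casein and soy pools 2 and 0 at adjusted p under 0.01. Leaving out 1 array gave 0 to 8 for the average, 0 to 3 in casein and 0 to 4 in soy. In casein the 1 called gene became 2 (quantile), 4 (12 separate arrays), 4 (array weights) and 0 (spike-in split, without casein and soy pools 2, and adjusted p under 0.01). In soy array weights called 4. With pool number as a replicate block on 12 separate arrays, which did not pair the pools (2 of 12 arrays correlated best with their own number), 6 were called for the average and 1 in casein.

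Over all genes the average called 1741, against 2641 with 12 separate arrays, 3318 with array weights, 247 without casein and soy pools 2 and 158 at adjusted p under 0.01. In casein 346 became 643 (quantile), 1369 (12 separate arrays), 821 (replicate block), 200 (only its groups), 1408 (weights), 10 (without casein and soy pools 2) and 7 (adjusted p under 0.01). In soy 31 became 246, 226, 9, 2034, 73 (spike-in split), 8 and 0, for quantile, 12 separate arrays, only its groups, weights, the split, those pools left out and the stricter threshold. Soy without E2 went from 0 to 1588 with weights. Soy with E2 went from 1 to 7 (quantile), 2 (largest SD), 13 (12 separate arrays), 3 (replicate block), 7 (weights) and 0 (without casein and soy pools 2, every probe set, and adjusted p under 0.01). The interaction went from 0 to 4 (12 separate arrays), 1 (replicate block), 5 (weights) and 1 (spike-in split). Leaving out 1 array gave 313 to 2334 for the average, 5 to 590 in casein, 0 to 760 in soy, 0 to 327 for soy without E2 and 0 to 3 with E2. The causes were not tested.

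No difference of the E2 average or of E2 in casein changed sign under the alternatives run, 180 and 189 fits of single genes. Uncalled differences did elsewhere. Cfd in soy became 0.07 (quantile) and 0.05 (weights). For soy without E2, leaving out casein and soy pools 2 gave 0.34 for Adipoq, 0.51 for Lep, 0.37 for Pck1, 0.05 for Lipe, 0.29 for Pnpla2, 0.33 for Plin1 and 0.43 for Pparg, and the spike-in split gave 0.06 for Plin1. With E2, Lep became 0.06 (quantile), Pck1 -0.04 (weights) and Pparg -0.11 (12 separate arrays), -0.11 (replicate block) and -0.15 (weights). For the interaction, without those pools, Adipoq became -0.05, Pck1 -0.17 and Pparg -0.43. It became 0.45 (quantile) and 0.23 (spike-in split) for Lep, 0.04 (quantile) for Plin1, and -0.06 (12 separate arrays) and -0.06 (replicate block) for Pparg.

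Leaving out 1 array gave -0.21 to 0.19 for Cfd in soy. For soy without E2 it gave -0.29 to 0.16 (Adipoq), -0.61 to 0.32 (Lep), -0.43 to 0.16 (Pck1), -0.42 to 0.13 (Plin1), -0.21 to 0.15 (Pnpla2) and -0.34 to 0.25 (Pparg). With E2 it gave -0.15 to 0.64 (Adipoq), -0.23 to 0.87 (Adrb3), -0.27 to 0.13 (Cfd), -1.12 to 0.20 (Lep), -0.07 to 0.15 (Lipe), -0.45 to 0.77 (Pck1), -0.64 to 0.19 (Plin1) and -0.42 to 0.36 (Pparg). For the interaction it gave -0.13 to 0.66 (Adipoq), -0.98 to 0.39 (Lep), -0.30 to 0.91 (Pck1), -0.52 to 0.32 (Plin1), -0.47 to 0.01 (Pnpla2) and -0.37 to 0.42 (Pparg). Relative to Plin1, Cfd and Pck1 passed in 17 of 17 alternatives, Adrb3 in 16 and Adipoq in 13. Not all of the 17 could test these results. Median centring subtracts the same value from every gene on an array, so it cannot change a difference from Plin1. Leaving out either of the near-identical casein plus E2 pools removed no sample and nearly repeated the main test. Signal over background is not held in centred values, so limits from dim probe sets could not be assessed.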

Other observations

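The median of 11 brown and beige adipocyte markers was -0.19 with the E2 average, against -1.02 for the 13 white adipocyte markers. Of the 11, 2 were called lower (Ebf2 by 1.24 and Cpt1b by 0.73), where 5.51% of all genes were. This count was 0 under quantile normalization and without casein pool 1, casein pool 2, casein plus E2 pool 1, soy plus E2 pool 1 or soy plus E2 pool 2, and 1 or 2 without any 1 of the other arrays. Lymphocyte markers had 0 of 9 called, against 12.2% of all genes, and their pool means ran from -1.81 to 2.55. They were below 0 on the 6 arrays whose spike-in mean was above 0 and above 0 on the other 6.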
